A study of Homo sapiens with 6 samples.

Results

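The SR proteins and hnRNP splicing factors examined here are 93 of the 24108 rows of an RNA-seq expression table. Rows were taken by gene symbol and not by a cut on a measured value, but the set was chosen with earlier results of these data known. A row was taken where 1 of its symbols named an SRSF gene (SR proteins, 15 rows), an hnRNP gene (25 rows), an SF3A or SF3B subunit (8 rows), U2AF1 or U2AF2 (2 rows), a numbered RBM gene (40 rows) or PTBP1, PTBP2 or PTBP3 (3 rows). Of these rows, 83 had a mean of at least 1 FPKM (a fragment count scaled to transcript length and library size) and were tested, as 83 of 11777 rows of the table. The cells were MDA-MB-231, an established basal, triple-negative breast cancer line. Lentivirus carrying a short hairpin RNA against luciferase (shCtr, 3 samples) or a hairpin against the zinc finger transcription factor ZNF148 (shZNF148, 3 samples) was applied for 48 h, and transduced cells were then selected for 24 h in 0.5 µg/ml puromycin. A single hairpin represented the knockdown, so an effect of the hairpin on other transcripts and the loss of ZNF148 cannot be told apart. The labels do not say that the replicates were separate cultures, and p-values then measure only the spread between these samples, which may be technical.

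Pre-mRNA splicing begins when U1 marks the start of an intron and U2AF with the U2 particle, which holds the SF3A and SF3B complexes, marks its end. SR proteins, which carry arginine and serine repeats, mostly bind exons and favour their inclusion, while hnRNPs, among them the polypyrimidine tract binding proteins PTBP1 to PTBP3, coat nascent RNA and often favour skipping. The RBM name only says that a protein has an RNA-binding motif, and it covers splicing regulators as well as proteins of ribosome assembly, RNA decay and RNA methylation.

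ZNF148 itself was at 3.72, 4.36 and 4.30 FPKM in shCtr replicates 1 to 3 and at 0.914, 0.282 and 0.834 FPKM in shZNF148 replicates 1 to 3. All shZNF148 values lay below all shCtr values, with a log2 fold change of -1.63 (SE 0.18, n = 3 per group, limma adjusted p = 0.00990). Without shCtr replicate 1 or shCtr replicate 3 the adjusted p rose to 0.0603 and 0.0568, with log2 fold changes of -1.69 and -1.61. The size depended on the pseudocount, at -2.57 with 0.1 FPKM and -0.69 with 5 FPKM in place of 1 FPKM. Relative depth, read from the steps between low values, was 0.806 to 1.13 of that of shCtr replicate 1. All fold changes are shZNF148 against shCtr on the log2(FPKM + 1) scale, which understates the change of low genes.

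The markers of the line were present in both groups, but all 6 mesenchymal and basal markers were lower in shZNF148. VIM, which encodes the filament protein vimentin, was at 1708 to 1842 FPKM in shCtr and 1507 to 1528 FPKM in shZNF148, without overlap (log2 fold change -0.22, limma adjusted p = 0.0563). EGFR was called lower (-0.61, limma adjusted p = 0.02003), CD44 (-0.46, 0.0185), AXL (-0.29, 0.0364) and PLAU (-0.30, 0.0314) passed the adjusted p, and CAV1 overlapped (-0.12). The 4 that passed lost the threshold without shCtr replicate 1 (adjusted p = 0.0828 to 0.125), 2 (0.0578 to 0.0921) or 3 (0.0757 to 0.113), and AXL and PLAU also without shZNF148 replicate 1 (0.0729 and 0.0641) or 3 (0.0685 and 0.0582). The falls also depended on scaling. With quantile normalization CD44 (-0.33, limma adjusted p = 0.0594), AXL (-0.23, 0.0625) and PLAU (-0.21, 0.0810) lost the threshold, while EGFR kept it (-0.57, 0.0234). Among alternatives that keep all 6 samples, the VIM change shrank to as little as -0.06, with a limma adjusted p of up to 0.576. Of the luminal and epithelial markers, ESR1, the oestrogen receptor gene, was listed at 0 in each sample, PGR, FOXA1, CDH1 and ESRP1 were under 0.5 FPKM, and EPCAM and GATA3 were at 7.53 to 11.1 FPKM. The row of ERBB2, joined with MIR4728, was at 20.1, 126 and 20.1 FPKM in shCtr and 24.8, 125 and 21.9 FPKM in shZNF148, so that replicate 2 of both groups stood apart. PTPRC, PECAM1 and ALB, markers of other cell types, were at most at 0.136 FPKM. The part of these differences in the splicing factor results was not tested. Without shCtr replicate 2 none and without shZNF148 replicate 2 4 of 83 splicing factor rows passed limma's adjusted p, with 18 and 16 at an unadjusted p under 0.05. None passed without shCtr replicate 1 or 3 either, with 5 of 82 and 7 of 83 at an unadjusted limma p under 0.05. Without shZNF148 replicate 2, RBM24 passed (limma adjusted p = 0.0486) in place of HNRPDL (0.0841), which passed with all 6 samples.

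Most splicing factors kept close to their control level after ZNF148 knockdown. Of the 83 tested rows, 2 were called at a limma adjusted p under 0.05 and a change of over 1.5-fold, beside 5.49% of all tested rows. RBM4B was called higher, as were 1.83% of all rows, and HNRPDL was called lower, as were 3.66% of all rows. With the adjusted p alone, 4 of 83 rows (4.82%) passed, beside 13.6% of all rows. RBM4B and U2AF2 rose (5.46% of all rows did), and HNRPDL and PTBP1 fell (8.13% of all rows did). At an unadjusted limma p under 0.05 there were 18 member rows (21.7%), beside 33.8% of all rows. Groups did not overlap in 22 member rows (26.5%, beside 41.0% of all rows). Of these, 13 were higher in all shZNF148 samples (20.0% of all rows) and 9 lower (21.0% of all rows).

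Most changes were also small. The median size of change over the members was 1.087-fold, beside 1.137-fold over all tested rows, and 74 of 83 member rows (89.2%) moved by less than 1.2-fold, beside 64.8% of all rows. The 95% interval of the change lay inside 1.5-fold in both directions for 70 of 83 members (84.3%), beside 68.4% of all rows. The median signed log2 fold change was -0.02 over the members and 0.01 over all rows, with 40 members higher and 43 lower. Members were more abundant than the average row, with a median of 42.6 FPKM against 12.6 FPKM, and were measured with a median SE of 0.09 against 0.11 on the log2 scale. When only rows averaging 5 FPKM or more were fitted, 4 of 76 members (5.26%) and 16.0% of all rows passed the adjusted p.

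**Figure D1:**
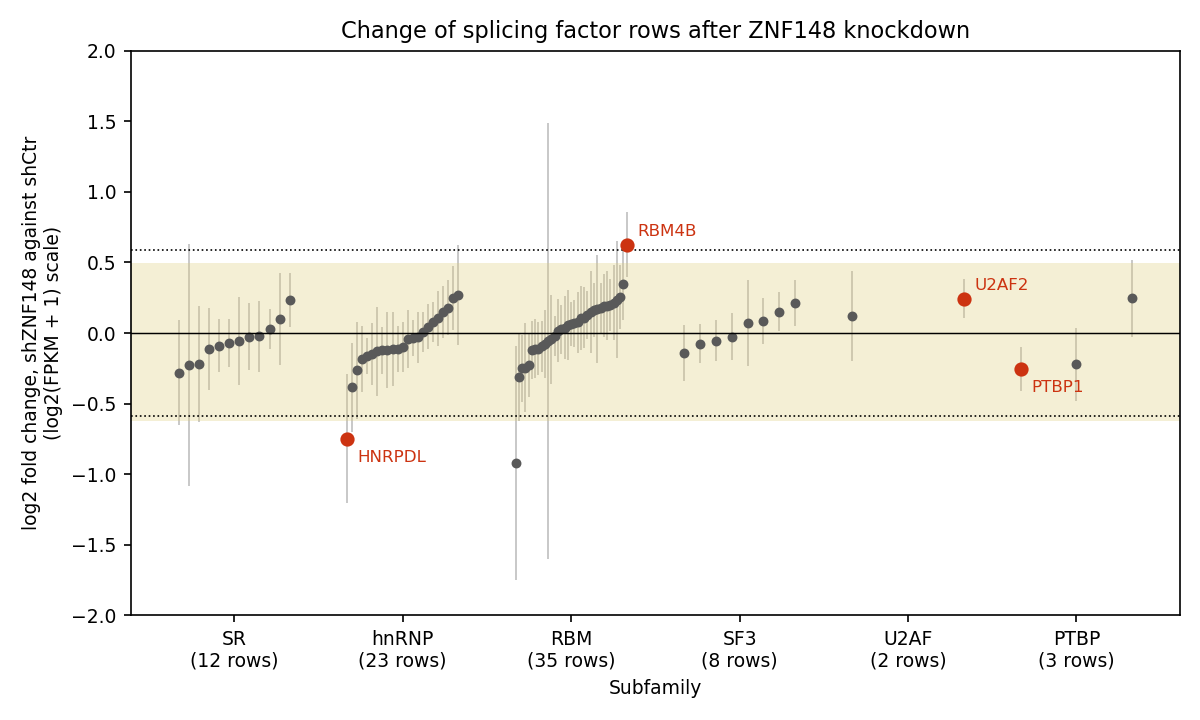
Log2 fold change of shZNF148 against shCtr on the log2(FPKM + 1) scale for each of the 83 tested rows, ordered by size within each subfamily, with 95% intervals from limma as bars. Shading spans the middle 90% of all tested rows, dotted lines mark 1.5-fold, and the 4 rows at an adjusted p under 0.05 are red and named. Only RBM4B, HNRPDL and RBM24 (lowest point among the RBM rows, not past the threshold) lie outside the dotted lines.

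**Figure D2:**
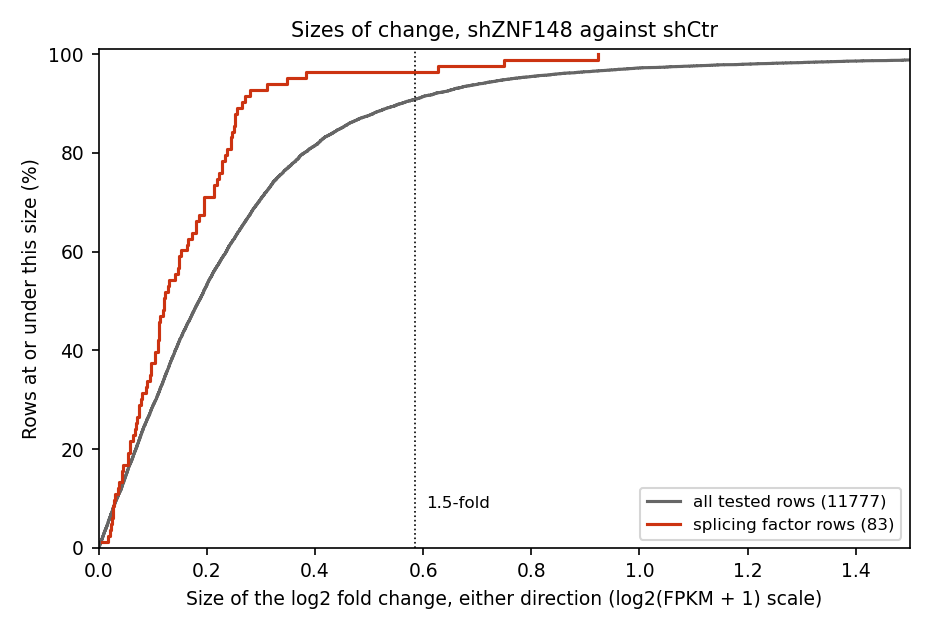
Cumulative share of rows, in percent, at or under each size of log2 fold change in either direction, for the 83 splicing factor rows (red) and all 11777 tested rows (grey). The dotted line marks 1.5-fold, which 96.4% of the splicing factor rows and 90.9% of all rows stay under.

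The promoters of the 4 genes that passed are shown because ZNF148 is known to bind GC-rich DNA, and each held the word CCCTCCCC at 1 or more of its RefSeq starts. The 250 bases before the start are given 5′ to 3′ on the gene's own strand from RefSeq on GRCh38.p14, with CCCTCCCC or its reverse complement GGGGAGGG in capitals. RBM4B lies at chr11:66677888-66678137 on the minus strand, U2AF2 at chr19:55654785-55655034 on the plus strand, HNRNPDL (the current symbol of HNRPDL) at chr4:82430463-82430712 on the minus strand and PTBP1 at chr19:797734-797983 on the plus strand.
RBM4B: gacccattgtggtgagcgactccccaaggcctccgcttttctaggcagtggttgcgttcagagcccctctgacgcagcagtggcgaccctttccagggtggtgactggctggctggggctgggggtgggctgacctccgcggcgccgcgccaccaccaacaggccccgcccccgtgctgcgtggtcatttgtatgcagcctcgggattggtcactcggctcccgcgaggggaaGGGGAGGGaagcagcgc
U2AF2: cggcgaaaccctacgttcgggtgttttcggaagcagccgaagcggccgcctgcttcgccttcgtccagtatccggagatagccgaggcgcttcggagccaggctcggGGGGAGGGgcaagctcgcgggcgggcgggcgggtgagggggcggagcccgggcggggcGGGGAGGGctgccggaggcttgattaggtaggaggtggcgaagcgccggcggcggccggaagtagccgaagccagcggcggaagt
HNRNPDL: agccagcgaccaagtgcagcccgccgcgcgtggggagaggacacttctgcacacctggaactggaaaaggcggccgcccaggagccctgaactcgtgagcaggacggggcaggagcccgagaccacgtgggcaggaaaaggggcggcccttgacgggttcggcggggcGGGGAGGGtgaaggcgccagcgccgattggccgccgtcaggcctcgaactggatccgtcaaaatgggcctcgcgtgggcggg
PTBP1: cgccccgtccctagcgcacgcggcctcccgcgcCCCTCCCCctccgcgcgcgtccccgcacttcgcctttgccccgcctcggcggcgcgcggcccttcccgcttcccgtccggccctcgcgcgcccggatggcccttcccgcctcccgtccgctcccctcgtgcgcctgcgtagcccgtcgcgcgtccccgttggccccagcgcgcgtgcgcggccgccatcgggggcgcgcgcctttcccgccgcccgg

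In RBM4B the word began 17 bases before the start. In U2AF2 it occurred 2 times, beginning 143 and 85 bases before the start. In HNRNPDL it began 82 bases before this start, and in PTBP1 217 bases before this start, while another RefSeq start of PTBP1 had none. The words were not rare in promoters. CCCTCCCC or CCCCACCCC was found on either strand, in the 250 bases before and 50 bases after the start, in 28 of 93 promoters of tested members (30.1%), in 22.6% of 12454 promoters of all tested genes and in 18.0% of 35116 promoters in the table. For CCCTCCCC alone these shares were 24.7%, 17.5% and 13.6%. They count promoters, and a gene can have more than 1. Median GC content was 63.7% for the members and 65.0% for tested genes. Of 82 tested member symbols, 74 had a promoter in the table, and 25 of these (33.8%) held 1 of the words at 1 or more starts. A match is a string of letters and not a measured binding site.

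At the end of the intron, U2AF2, the large U2AF subunit that reads the polypyrimidine tract, rose. Its level was 90.9, 92.3 and 92.0 FPKM in shCtr and 111, 113 and 103 FPKM in shZNF148 (means 91.7 ± 0.768 and 109 ± 5.36, SD, n = 3). Each shZNF148 sample was higher than each shCtr sample, and the shCtr samples lay close together. The log2 fold change was 0.24 (SE 0.06, limma adjusted p = 0.0425), or 1.19-fold. U2AF2 passed the adjusted p alone and lost that threshold without shCtr replicate 1, 2 or 3 (adjusted p = 0.146, 0.101 and 0.136) and without shZNF148 replicate 1 (0.107), with log2 fold changes of 0.23 to 0.25. The threshold was also lost when limma's variance trend was left out (0.0653), within a range of 0.0214 to 0.146 over all 16 alternatives. Its partner U2AF1, the small subunit that reads the terminal AG, was at 88.1, 100.2 and 89.8 FPKM in shCtr and 87.6, 94.2 and 124.0 FPKM in shZNF148. The groups of U2AF1 overlapped and only shZNF148 replicate 3 was high (log2 fold change 0.12, SE 0.13, limma adjusted p = 0.561).

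None of the 8 SF3 rows passed the limma adjusted p, and 2 were at an unadjusted p under 0.05. The intervals of all 8 lay inside 1.5-fold. SF3A1, a U2 subunit, was at 31.3, 28.0 and 30.3 FPKM in shCtr and 36.1, 33.6 and 34.5 FPKM in shZNF148, with groups that did not overlap (log2 fold change 0.21, SE 0.07, limma adjusted p = 0.0823). SF3B3 was at 28.4, 28.6 and 29.5 FPKM in shCtr and 32.8, 31.3 and 32.1 FPKM in shZNF148, again without overlap (0.15, SE 0.06, limma adjusted p = 0.119). The remaining subunits overlapped between groups. SF3B1, which grips the branch point and is often mutated in cancer, had a mean of 90.5 ± 6.52 FPKM in shCtr against 88.8 ± 2.47 in shZNF148 (SD, n = 3, log2 fold change -0.03). SF3B2, the most abundant SF3 row at a mean of 165 FPKM, had a log2 fold change of -0.07. SF3A2, SF3A3, SF3B4 and SF3B5 had log2 fold changes of -0.05, 0.09, 0.07 and -0.14.

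PTBP1, which binds polypyrimidine tracts and represses many exons, fell. Its row, which also carries the symbol of the microRNA gene MIR4745, was at 129.6, 126.6 and 127.0 FPKM in shCtr and 112.8, 99.5 and 109.2 FPKM in shZNF148. All shZNF148 samples lay below the shCtr samples, which were close to each other. The log2 fold change was -0.25 (SE 0.07, limma adjusted p = 0.0490), a level 16.1% lower. PTBP1 passed the adjusted p alone and lost that threshold without shCtr replicate 1, 2 or 3 (adjusted p = 0.160, 0.110 and 0.144) and without shZNF148 replicate 1 or 3 (0.0726 and 0.0752), with log2 fold changes of -0.29 to -0.24. The threshold was lost under 5 further alternatives that keep all 6 samples and no block, at adjusted p of 0.0505 to 0.101, and the range over all 16 alternatives was 0.0437 to 0.160.

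PTBP2, the paralog best known from neurons, was at 5.28, 4.18 and 5.46 FPKM in shCtr and 5.56, 6.44 and 6.17 FPKM in shZNF148. Its groups did not overlap, in the opposite direction to PTBP1, but it did not pass (log2 fold change 0.25, SE 0.11, limma adjusted p = 0.183). PTBP3, in a row joined with MIR3134, had a mean of 13.6 ± 0.948 FPKM in shCtr against 11.5 ± 1.48 in shZNF148 (SD, n = 3, log2 fold change -0.22, limma adjusted p = 0.200). The log2 ratio of PTBP1 to PTBP2 within a sample was 4.38, 4.62 and 4.31 in shCtr and 4.12, 3.76 and 3.94 in shZNF148. The groups did not overlap, with a difference of -0.50 (exact two-sided permutation p = 0.1, the smallest that 3 against 3 samples allow, 0.55 after Benjamini-Hochberg adjustment over 11 paralog pairs).

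**Figure D3:**
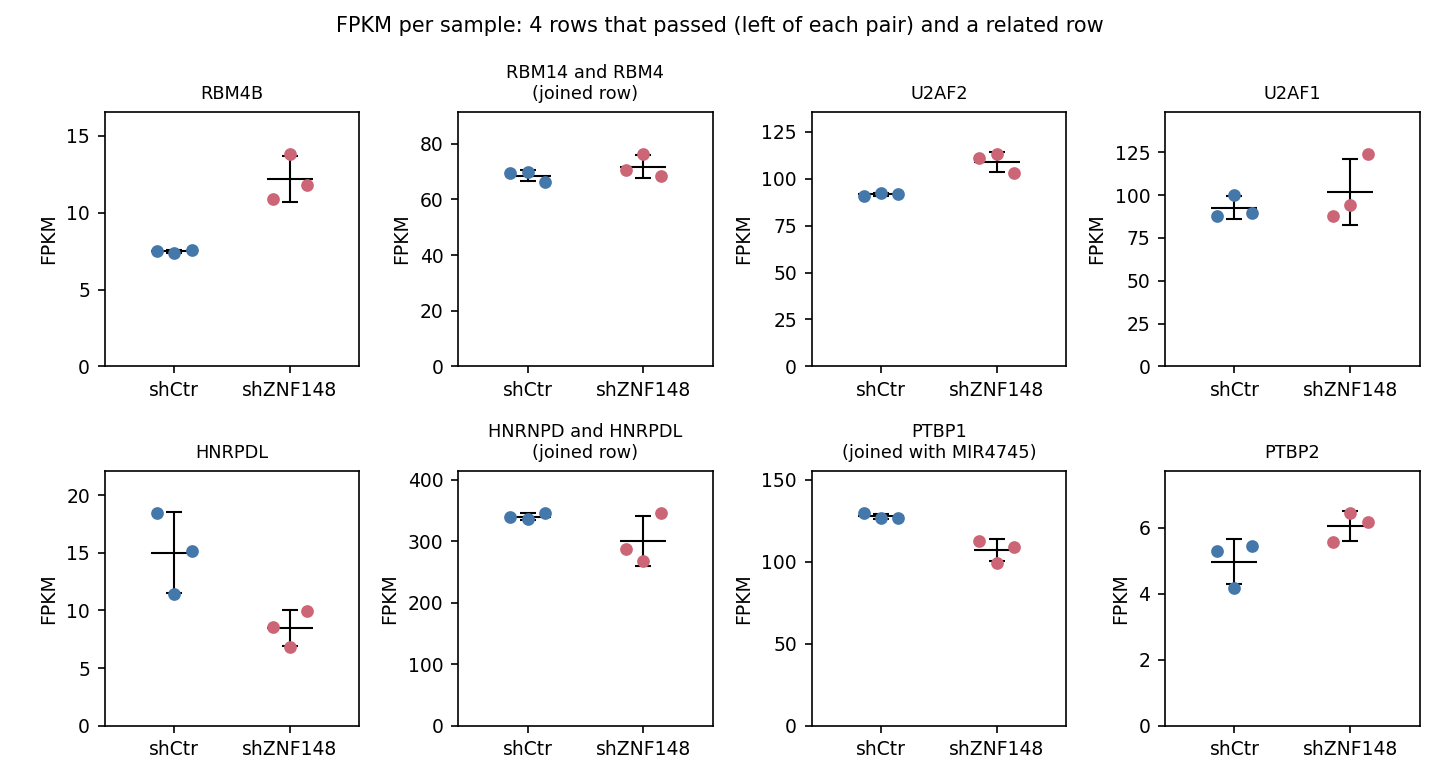
FPKM in each sample (points) with the group mean and SD (bars, n = 3) for RBM4B, U2AF2, HNRPDL and PTBP1, each beside a related row. The groups separate in the 4 rows that passed and in PTBP2, while the groups of RBM14 and RBM4, U2AF1 and the joined HNRNPD and HNRPDL row overlap.

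Of 23 tested hnRNP rows, 1 passed, 4 were at an unadjusted limma p under 0.05, and 15 were lower in shZNF148, with a median log2 fold change of -0.10. HNRPDL, which encodes the hnRNP D-like protein that binds AU-rich RNA, was at 18.4, 11.4 and 15.2 FPKM in shCtr and 8.53, 6.84 and 9.98 FPKM in shZNF148. All shZNF148 samples were below all shCtr samples, though shCtr replicate 2 was nearer to the highest shZNF148 sample than to shCtr replicate 3. The log2 fold change was -0.75 (SE 0.19, limma adjusted p = 0.0480), a level 40.5% lower. The call was lost on leaving out any 1 sample. The adjusted p was 0.143, 0.0563 and 0.136 without shCtr replicates 1, 2 and 3 and 0.102, 0.0841 and 0.0551 without shZNF148 replicates 1, 2 and 3, with log2 fold changes of -0.92 to -0.60. It was also lost with no filter on low rows (0.0726), a pseudocount of 5 FPKM (0.0506) or no variance trend (0.0551), and the range over all 16 alternatives was 0.0370 to 0.143.

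A further row of the table joins HNRNPD, the AU-rich element binding protein AUF1, with HNRPDL, and the table does not say how reads of the pair were split. It was at 339, 335 and 345 FPKM in shCtr and 287, 268 and 345 FPKM in shZNF148. The first 2 shZNF148 samples were lower and shZNF148 replicate 3 was at the control level, so the groups overlapped (log2 fold change -0.19, limma adjusted p = 0.227). Without shZNF148 replicate 3 this row passed (-0.29, adjusted p = 0.0467), within a range of 0.0467 to 0.429 over 16 alternatives. The fall of HNRPDL therefore describes its own row at a mean of 11.7 FPKM and not the joined row at a mean of 320 FPKM. HNRNPD and HNRNPDL lie 48061 bases apart on chromosome 4 in the GENCODE annotation of GRCh38.

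The most abundant hnRNPs had overlapping groups. HNRNPA2B1, which binds many exons and 3' ends, was the highest of all members at 471, 427 and 485 FPKM in shCtr and 406, 377 and 497 FPKM in shZNF148 (log2 fold change -0.12, SE 0.11, limma adjusted p = 0.494). The first of 2 rows of HNRNPK, a poly(C)-binding protein, was at a mean of 357 FPKM with a log2 fold change of -0.03. HNRNPA1, a splicing repressor whose row is joined with the pseudogene HNRNPA1P10 and may share reads with other copies, was at 35.7, 33.7 and 36.5 FPKM in shCtr and 32.2, 22.9 and 33.7 FPKM in shZNF148. Its groups came close without overlapping, and shZNF148 replicate 2 was far below the rest (-0.26, limma adjusted p = 0.240).

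Besides HNRPDL, 3 hnRNP rows were at an unadjusted limma p under 0.05, those of HNRNPC, HNRNPCL1 and HNRNPA0, which are named here after their values were seen. HNRNPC, which binds uridine tracts, was at 110, 104 and 110 FPKM in shCtr and 95.8, 96.6 and 96.2 FPKM in shZNF148, without overlap (-0.16, SE 0.05, limma adjusted p = 0.0840). The row of its near copy HNRNPCL1, which could share its reads, was at 3.22 to 4.01 FPKM in shCtr and 2.11 to 3.02 FPKM in shZNF148 (-0.38, limma adjusted p = 0.0972). HNRNPA0 was at 42.1, 53.1 and 44.4 FPKM in shCtr and 55.0, 57.5 and 53.5 FPKM in shZNF148, all above the controls (0.25, SE 0.10, limma adjusted p = 0.119). Within shZNF148, replicate 2 was lower than both other replicates in 16 of 23 hnRNP rows, with a median deviation of -0.13 (log2). Replicate 3 was higher than both in 15 of 23. Among the 12 SR rows these counts were 8 and 7. Over all 11777 tested rows they were 4533 (median deviation 0.004) and 3816. Replicate 2 of shZNF148 lay outside the other replicates, above or below, in 78.4% of all tested rows.

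None of the 12 tested SR protein rows passed the limma adjusted p, and 1 (8.33%) was at an unadjusted p under 0.05. Log2 fold changes ran from -0.28 to 0.23 with a median of -0.06, and 9 rows were lower. The row at an unadjusted p under 0.05 was SRSF8, an SRSF2 paralog, at 6.65, 7.45 and 6.99 FPKM in shCtr and 8.20, 8.24 and 8.90 FPKM in shZNF148. It was the only SR row whose groups did not overlap (0.23, SE 0.08, limma adjusted p = 0.0942). SRSF2, joined with MIR636 in the most abundant SR row, was at 183, 122.7 and 127 FPKM in shCtr and 124, 108 and 118 FPKM in shZNF148. Only shCtr replicate 1 stood above the rest (-0.28, SE 0.16, limma adjusted p = 0.253). The log2 ratio of SRSF2 to SRSF8 did not overlap between groups, at 4.589, 3.872 and 4.002 in shCtr and 3.76, 3.57 and 3.59 in shZNF148 (difference -0.51, exact two-sided permutation p = 0.1, the smallest possible, 0.55 after Benjamini-Hochberg adjustment).

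Spread between the control samples was larger than the change for several SR proteins. SRSF3, which shuttles to the cytoplasm and couples splicing to RNA export, was at 82.0, 128.5 and 98.3 FPKM in shCtr and 94.4, 74.8 and 92.6 FPKM in shZNF148 in the more abundant of its 2 rows. The first row of SRSF5 was at 84.0, 117.8 and 84.9 FPKM in shCtr and 94.8, 105.4 and 103.0 FPKM in shZNF148. SRSF6 was at 36.2, 48.6 and 36.7 FPKM in shCtr and 40.3, 34.5 and 41.1 FPKM in shZNF148. In these 3 rows shCtr replicate 2 was the highest of the 6 samples. SRSF1, the founding SR protein, had its lowest value there instead, at 80.1, 62.9 and 80.7 FPKM in shCtr and 65.1, 64.1 and 77.1 FPKM in shZNF148. The second row of SRSF5 was also lowest there, at 12.2, 4.30 and 12.05 FPKM in shCtr and 7.12, 6.11 and 8.85 FPKM in shZNF148.

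Over the 12 SR rows, shCtr replicate 2 lay outside the other control values in 11 (91.7%), 6 times above and 5 times below, beside 72.1% of all tested rows. The median size of its deviation from them was 0.31 on the log2 scale for SR rows and 0.10 for all rows, and in the other 5 samples the SR value was 0.08 to 0.18. Without this sample the log2 fold changes were -0.05 for the second row of SRSF3, 0.26 for the first row of SRSF5 (limma adjusted p = 0.104, range over 16 alternatives 0.104 to 0.963) and 0.08 for SRSF6. No member of any subfamily then passed limma's adjusted p, beside 2.65% of all rows. At an unadjusted limma p under 0.05 were 18 of 83 members (21.7%), beside 29.0% of all rows. None passed without shCtr replicate 1 or 3 either, beside 0.246% and 0.4% of all rows. Fewer were then at an unadjusted limma p under 0.05 (5 of 82 and 7 of 83), beside 24.5% and 25.1% of all rows. The remaining SR rows moved little, with log2 fold changes of -0.11 for SRSF1, -0.09 for SRSF9, -0.07 for SRSF7, -0.06 for SRSF6, -0.03 for the first row of SRSF3, -0.02 for SRSF11 and 0.03 for SRSF4. SRSF12 was listed at 0 in all samples, and both SRSF10 rows lay under the filter at up to 1.18 FPKM.

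**Figure D4:**
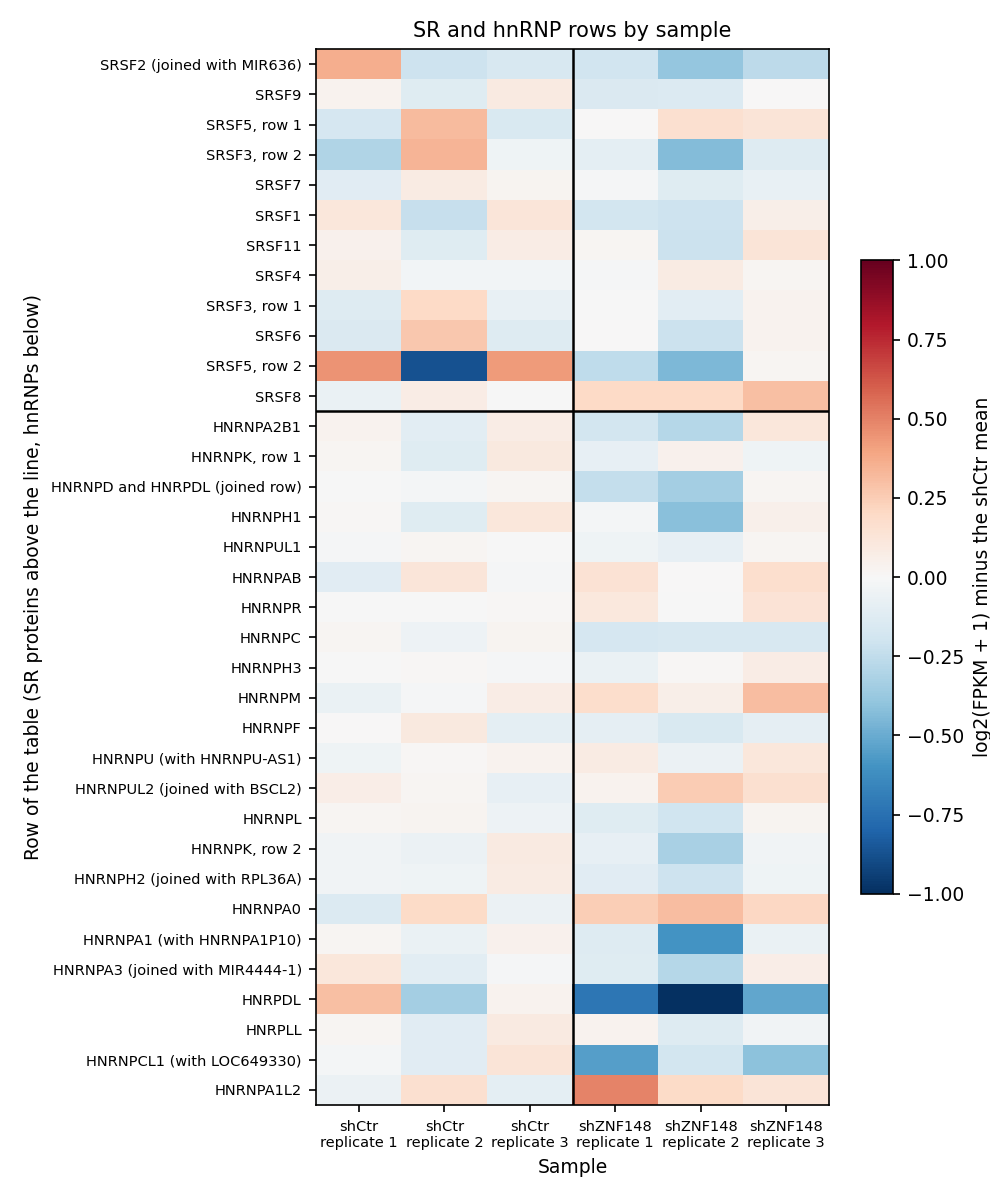
Log2(FPKM + 1) minus the shCtr mean, as colour from -1 (blue) to 1 (red), for the 12 tested SR rows (above the line) and 23 tested hnRNP rows, each ordered by mean FPKM, in the 6 samples. The column of shCtr replicate 2 shows the strongest colours among the SR rows of the controls, and the HNRPDL row is blue in all 3 shZNF148 samples.

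Among 35 tested RBM rows, 1 passed and 9 were at an unadjusted limma p under 0.05, with 22 rows higher and 13 lower and a median log2 fold change of 0.06. RBM4B, a paralog of the alternative splicing regulator RBM4, was at 7.53, 7.39 and 7.58 FPKM in shCtr and 10.9, 13.8 and 11.8 FPKM in shZNF148 (means 7.50 ± 0.1002 and 12.2 ± 1.48, SD, n = 3). The shCtr values were almost equal, and the lowest shZNF148 value was above all of them. The log2 fold change was 0.63 (SE 0.10, limma adjusted p = 0.0173), or 1.54-fold. The adjusted p was 0.0828, 0.0563 and 0.0729 without shCtr replicates 1, 2 and 3, and without shZNF148 replicate 2 the change was 0.54 (adjusted p = 0.0133), under 1.5-fold. With a pseudocount of 5 FPKM the change was 0.46 (adjusted p = 0.0191), and the adjusted p ran from 0.0121 to 0.0828 over all 16 alternatives.

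RBM4B lies next to RBM4 on chromosome 11, on the opposite strand, and the gene bodies share 3377 bases in the GENCODE annotation of GRCh38. Whether reads were counted by strand is not stated in the sources used here, so reads of the shared stretch and of near-identical exons could be assigned to either gene. The row that joins RBM4 with its neighbour RBM14 was at 69.4, 70.0 and 66.4 FPKM in shCtr and 70.6, 76.3 and 68.4 FPKM in shZNF148. Its groups overlapped and its level was several times that of RBM4B (log2 fold change 0.06, SE 0.06, limma adjusted p = 0.523).

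The largest change of any member was that of RBM24, a muscle-linked splicing regulator named here after its values were seen. It was at 5.95, 7.50 and 6.17 FPKM in shCtr and 4.61, 1.19 and 4.07 FPKM in shZNF148. All shZNF148 samples were lower, and shZNF148 replicate 2 was far below the other 2 (log2 fold change -0.92, SE 0.35, limma adjusted p = 0.118). Without that sample the change was -0.49 and passed (adjusted p = 0.0486, range over 15 alternatives 0.0486 to 0.248). RBM19, which acts in ribosome assembly and is also named after its values were seen, was at 4.02, 4.40 and 5.05 FPKM in shCtr and 5.39, 6.23 and 6.33 FPKM in shZNF148. Its groups did not overlap (0.35, SE 0.11, limma adjusted p = 0.0755).

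The most abundant RBM rows were RBM12 (joined with CPNE1), RBM39 and the second row of RBM3. RBM12 had a mean of 144 ± 7.01 FPKM in shCtr against 142 ± 2.57 in shZNF148 (SD, n = 3, log2 fold change -0.02). RBM39, a U2AF2-related splicing factor that some sulfonamide drugs mark for degradation, averaged 96.9 ± 7.98 and 91.9 ± 10.2 FPKM (-0.08). The second row of RBM3, a cold-induced RNA-binding protein, was at 88.7, 85.1 and 99.5 FPKM in shCtr and 84.5, 68.0 and 77.1 FPKM in shZNF148. Its groups did not overlap (-0.25, limma adjusted p = 0.133), while the first RBM3 row overlapped at a log2 fold change of 0.08. The widest interval belonged to the first of 2 RBM12B rows, which lay between 0.000591 and 3.75 FPKM in shCtr.

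Of the 10 rows under the filter, RBM11, RBM46 and SRSF12 were listed at 0 in all 6 samples. RBM20, RBM44, the antisense gene RBM26-AS1, the pseudogene rows HNRNPA3P1 and HNRNPKP3 and both SRSF10 rows averaged under 1 FPKM. Among the tested rows, 8 joined a member with a gene that is no member, and their values cannot be assigned to 1 gene.

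FPKM was also summed over the rows of each subfamily, as a description with no test. The SR rows summed to 815 ± 18.1 FPKM in shCtr and 759 ± 38.0 in shZNF148 (SD, n = 3, 6.98% lower), with the highest shZNF148 sum (794) just under the lowest shCtr sum (795). Without the joined SRSF2 row the SR sums overlapped and the difference was -4.38%. The hnRNP rows summed to 2700 ± 78.8 and 2591 ± 183, the SF3 rows to 602 ± 10.3 and 593 ± 14.6, and the RBM rows to 962 ± 10.3 and 973 ± 31.3, all overlapping. The sum over all 93 rows was 5410 ± 53.7 in shCtr and 5251 ± 261 in shZNF148. Over the whole table, FPKM summed to 507312, 499660 and 497730 in shCtr and 475213, 488173 and 469594 in shZNF148, lower without overlap. The subfamily sums were not scaled to these totals. The U2AF sums were 14.3% higher and the PTBP sums 14.7% lower in shZNF148, without overlap, and the latter followed the joined PTBP1 row. In RNA from a whole culture, fewer cells that express a gene and less of its RNA per cell cannot be told apart.

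Most ratios within paralog pairs overlapped between groups. Of 12 listed pairs 11 could be formed, since HNRNPD and HNRPDL share their best row. The exceptions were PTBP1 to PTBP2 and SRSF2 to SRSF8. SRSF1 to SRSF9 differed by -0.02 (log2), HNRNPH1 to HNRNPF by -0.02, PTBP1 to PTBP3 by -0.03, HNRNPL to HNRPLL by -0.05 and U2AF1 to U2AF2 by -0.12, with exact two-sided permutation p of 0.5 to 0.9. SRSF5 to SRSF6 differed by 0.15 and SRSF3 to SRSF7 by -0.15 (exact two-sided permutation p = 0.2 and 0.5). HNRNPA1 to HNRNPA2B1 differed by -0.15 and SRSF4 to SRSF6 by 0.09 (exact two-sided permutation p = 0.4 and 0.8).

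The other splicing genes were taken from 6 lists written from textbook roles. Of 136 tested rows, 9 (6.62%) passed the limma adjusted p, beside 13.6% of all rows. Of these, 3 were higher and 6 lower (beside 5.46% and 8.13% of all rows), and 1 was called at over 1.5-fold (beside 5.49% of all rows). That row was FUBP1, a single-stranded nucleic acid binding protein that regulates splicing and MYC transcription, at 28.2, 26.9 and 28.3 FPKM in shCtr and 19.1, 14.7 and 21.0 FPKM in shZNF148. Its groups did not overlap (log2 fold change -0.60, SE 0.13, limma adjusted p = 0.0322), and the call was lost without shCtr replicate 1, 2 or 3 or shZNF148 replicate 1 (adjusted p = 0.116, 0.0817, 0.105 and 0.0679). Without shZNF148 replicate 2 its change was -0.46, under 1.5-fold. In the same list, PSPC1, a paraspeckle protein, rose from 28.9 ± 0.702 to 38.9 ± 1.37 FPKM (SD, n = 3, 0.41, limma adjusted p = 0.0152). Thus 2 of 33 other RNA-binding regulators (6.06%) passed.

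Among SR-related proteins 2 of 19 (10.5%) passed, both lower. SRRM1, a large RS-repeat coactivator, had the larger change (-0.36, SE 0.06, limma adjusted p = 0.0220). Of 41 rows of the U4/U6.U5 and catalytic proteins 1 (2.44%) passed, the second row of LSM3, which encodes a ring protein of U6 (-0.35, limma adjusted p = 0.0212). The first LSM3 row overlapped between groups (-0.02, limma adjusted p = 0.946). With rows that share a symbol summed, LSM3 changed by -0.26 and lost the threshold (limma adjusted p = 0.0506). The exon junction and nonsense-mediated decay list had 4 of 14 rows past the threshold (28.6%, beside 13.6% of all rows), 2 higher and 2 lower. The largest rise was that of SMG8, part of the complex of the decay kinase SMG1 (0.43, limma adjusted p = 0.0379), and the largest fall that of MAGOHB, an exon junction subunit (-0.48, limma adjusted p = 0.0481). UPF3B also passed higher (0.42, limma adjusted p = 0.0464) and SMG9 lower (-0.44, limma adjusted p = 0.0290). Both are named after their values were seen, and no alternatives are given for them. None of 9 SR kinase and transport rows and none of 20 U1, U2 and Sm rows passed, with 2 and 3 rows at an unadjusted limma p under 0.05. PSPC1, SRRM1, LSM3, SMG8 and MAGOHB all lost the threshold without shCtr replicate 1 (adjusted p = 0.0828 to 0.156) and without shCtr replicate 3 (0.0708 to 0.140). The last 4 of these also lost it without shCtr replicate 2 (0.0563 to 0.0946) or shZNF148 replicate 1 (0.0605 to 0.114), and SMG8 and MAGOHB without shZNF148 replicate 2 (0.0600 and 0.0745), SMG8 also without shZNF148 replicate 3 (0.0625).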

How the data were processed

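RNA-seq of MDA-MB-231 cells gave 3 shCtr and 3 shZNF148 samples, grouped by their labels. The values deposited by the authors are FPKM, 1 column per sample in a single table of 24108 rows, and 0 per-sample columns went unused. The submitters' processing notes name bcl2fastq 2.17.1.14, TopHat2 2.0.14, Cufflinks 2.2.1 and Cuffnorm 2.2.1 and the builds hg18 and hg19, without role or order, whereas the paper's methods describe Salmon, DESeq2 and GRCh38. Which of these made the FPKM values, whether strand was used and how samples were scaled are not given in the sources used here. FPKM are not counts, and the number of reads behind a value is unknown, so no count test was run and no counting interval is given.

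Members were rows in which a comma-separated symbol matched the SRSF, HNRNP or HNRP, SF3A, SF3B, U2AF1, U2AF2, RBM or PTBP pattern, each row being kept apart. Of 93 rows, 7 symbols had 2 rows each. The 11777 rows averaging 1 FPKM or more were fitted as log2(FPKM + 1) by condition alone, using limma 3.58.1 (R 4.3.3), eBayes with a variance trend and Benjamini-Hochberg adjustment over all of them. The thresholds were an adjusted p under 0.05 and, for called rows, 1.5-fold. Ratios of paralogs had exact two-sided permutation tests in Python 3.11.15 with scipy 1.17.1. In simulated data with known shifts, 87.6% of 97 rows with a shift of 1 (log2) and 97.1% of 103 rows with a shift of 2 were called. There were 4 false calls among the unshifted rows of the 11777. Low rows were not shifted. Shifts under 1 were not simulated, and all 83 tested members changed by less than that, so these shares do not describe changes of their size.

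Named genes were the called rows, the rows at an adjusted p under 0.05 with the largest changes, the 3 most abundant rows of each subfamily, all SRSF, SF3, U2AF and PTBP rows, the paralog pairs, ZNF148, cell line markers, and the called or most changed rows of 6 lists of other splicing genes. The members and lists were chosen with earlier results of these data known. A total of 16 alternatives varied the filter, pseudocount, scaling, replicate block, variance model, samples and summing of rows. Coordinates came from RefSeq and GENCODE release 44 on GRCh38, not from the table, which has none. Same-numbered samples did not deviate together (r across rows 0.00104, -0.0882 and 0.0304), so the numbers were not treated as pairs.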

Additional observations from a re-analysis of the deposited data

How the results depend on the processing

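Of the members' single-row values under the alternatives, 30 lost and 2 gained the threshold, and 12 others moved by more than the spread between replicates. The sign changed in 36 of these values, in 22 member rows, of which 0 had passed with the settings of the report. RBM4B was not called at a pseudocount of 5 FPKM (0 rows called higher), and HNRPDL was not called with no filter, a pseudocount of 5 FPKM or no variance trend (0 called lower). Rows that rose at the adjusted p fell from 2 to 1 with no variance trend. Rows that fell went from 2 to 0 with no filter or no variance trend, and to 1 with a pseudocount of 0.1 or 5 FPKM, median-of-ratios scaling or quantile normalization. Leaving out 1 sample gave 0 to 1 rows called higher, 0 called lower, 0 to 2 risen and 0 to 2 fallen, and a ZNF148 log2 fold change of -1.74 to -1.45. With a pseudocount of 0.1 or 5 FPKM it was -2.57 or -0.69 (adjusted p = 0.0151 and 0.00761). Without shCtr replicate 1, 2 or 3, 29, 312 and 47 rows of the whole table passed, beside 1600. Without joined rows the summed SR change was -4.38% and the PTBP change 21.8%, since PTBP2 alone is then left, against -14.7% with them. With the replicate number as a block, 0 members were called higher, 0 rose and 1 fell (HNRPDL, adjusted p = 0.0498), and 401 rows of the table passed. RBM4B (0.0504), U2AF2 (0.0977) and PTBP1 (0.0940) lost the threshold. Across tested rows same-numbered samples did not deviate together, but the labels do not say whether they were handled together. ZNF148 was not tested at a mean of at least 5 FPKM. The cause of these changes was not tested. With 3 samples a group, the 4 rows at an adjusted p of 0.0173 to 0.0490 lie near the threshold, and the read depth behind low FPKM is unknown.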
